A study of Homo sapiens with 6 samples.

Results

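HLA class I molecules carry peptides from inside the cell to its surface, where CD8 T cells and NK cells read them. A polymorphic heavy chain pairs with the light chain beta-2-microglobulin in the endoplasmic reticulum, the TAP transporter brings in peptides made by the proteasome, tapasin holds the empty molecule beside TAP, and the ERAP aminopeptidases trim the peptides to length. Interferons raise many of these genes through interferon regulatory factors (IRF) and the coactivator NLRC5, and reduced class I at the surface is a known route of immune escape in pancreatic cancer.

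The 9 genes described here, of 20345 in the table, were taken by symbol and all 9 passed the filter on low counts. They are the heavy chain genes HLA-B, HLA-C and HLA-E, the light chain gene B2M, the transporter genes TAP1 and TAP2, the tapasin gene TAPBP, and the aminopeptidase genes ERAP1 and ERAP2. Other class I heavy chains were not analysed here, apart from HLA-F and HLA-G, which were counted with the class I-like molecules. RNA was sequenced from SW1990, a human pancreatic adenocarcinoma cell line kept in DMEM with serum. All cells had been transduced with pLKO.1 lentivirus and selected with puromycin as stable lines, 3 libraries with a non-targeting shRNA (control shRNA) and 3 with an shRNA against LRRC8A, a subunit that volume-regulated anion channels cannot do without (LRRC8A shRNA). The labels name 1 hairpin against LRRC8A and put all libraries in 1 batch. Nothing says that the 3 libraries of a group came from separate transductions, so the p-values measure the spread between these samples.

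Library totals were 37052641 to 42937612 counts. LRRC8A mRNA was at 81.2, 73.8 and 71.7 CPM in the controls and at 40.9, 37.8 and 41.6 CPM in the LRRC8A shRNA libraries, where CPM is the count scaled to library size with TMM factors. Epithelial markers were present, with EPCAM at 544 ± 8.34 and CDH1 at 506 ± 11.5 CPM in controls (SD, n = 3 each), but KRT7 was at 0.890 to 1.39 CPM and MUC1 at 4.10 to 5.38 CPM. The 9 markers tested summed to 13410 to 14180 CPM in controls and 10770 to 11900 CPM in LRRC8A shRNA libraries, with KRT8, KRT18 and TSPAN8 lower. Of 14 leukocyte markers, which include cells rich in class I, 11 had under 20 counts in every library and 4 of these had none in any (CD3D, CD3E, CD2 and NKG7). Their summed level was 4.09 to 5.07 CPM in controls and 4.42 to 5.00 CPM in LRRC8A shRNA libraries. Fibroblast markers summed to 3.17 to 4.72 and 4.06 to 4.41 CPM, and endothelial markers to 1.75 to 2.32 and 1.67 to 2.17 CPM.

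The promoters show what the members share. RefSeq promoter windows (GRCh38.p14, 250 bases before to 50 after a transcript start) were found for 8 of the 9 members, with 11 windows in all; HLA-E had none. The IRF word AANNGAAA (TTTCNNTT on the other strand) was in 9 of the 11 windows, with at least 1 window for each of the 8 members. Of the 35116 windows of all genes 22.8% held the IRF word. HLA-B, HLA-C and B2M also held TGACG followed by ATTGG 15 to 30 bases on (or the complement), a pattern like the X2 and Y boxes of the class I promoters through which NLRC5 is known to act. Of all windows 0.6% held it. The 10-base NF-kB consensus, found in 5.9% of all windows, was present in 1 window each of HLA-B, HLA-C, B2M, TAP1, TAPBP and ERAP1. These motifs were chosen from what is known of class I promoters, and a match is a stretch of letters and not a measured site. The longer stretches below show all 3 motifs in the genes of the heavy and light chains, and the 30-base stretches the IRF words of the loading genes. Capitals mark the motif letters, and overlapping matches run together.
HLA-B (chr6:31357251-31357361, minus strand): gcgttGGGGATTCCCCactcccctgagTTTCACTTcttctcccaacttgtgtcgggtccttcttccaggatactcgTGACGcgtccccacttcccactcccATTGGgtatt
HLA-C (chr6:31272163-31272269, minus strand): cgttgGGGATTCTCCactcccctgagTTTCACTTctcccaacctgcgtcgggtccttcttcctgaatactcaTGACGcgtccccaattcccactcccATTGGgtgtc
B2M (chr15:44711370-44711477, plus strand): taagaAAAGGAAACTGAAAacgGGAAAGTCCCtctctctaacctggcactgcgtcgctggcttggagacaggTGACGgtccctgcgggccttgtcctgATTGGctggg
TAP1 (chr6:32853817-32853846, minus strand): gcggccgcTTTCGATTTCGCTTtcccctaa
TAP2 (chr6:32838780-32838809, minus strand): ggctggggAAGCGAAAGCGAAAgctgcccg
TAPBP (chr6:33314075-33314104, minus strand): ttggaggaAAGTGAAAGTGAAAggaggaag
ERAP1 (chr5:96807925-96807954, minus strand): ccgggctccacTTTCACTTtcggtcctggg
ERAP2 (chr5:96876458-96876487, plus strand): aatcttagAACAGAAAGTGAAAgcaaaagt

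The HLA-B and HLA-C windows were 88.5% identical over their aligned length, against 48.0% for HLA-B and B2M. In HLA-B the IRF word ended 148 bases before the start, and in HLA-C 144 bases before it. In the printed stretches of B2M, TAP1, TAP2, TAPBP and ERAP2 the IRF words came as an overlapping pair.

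**Figure D1:**
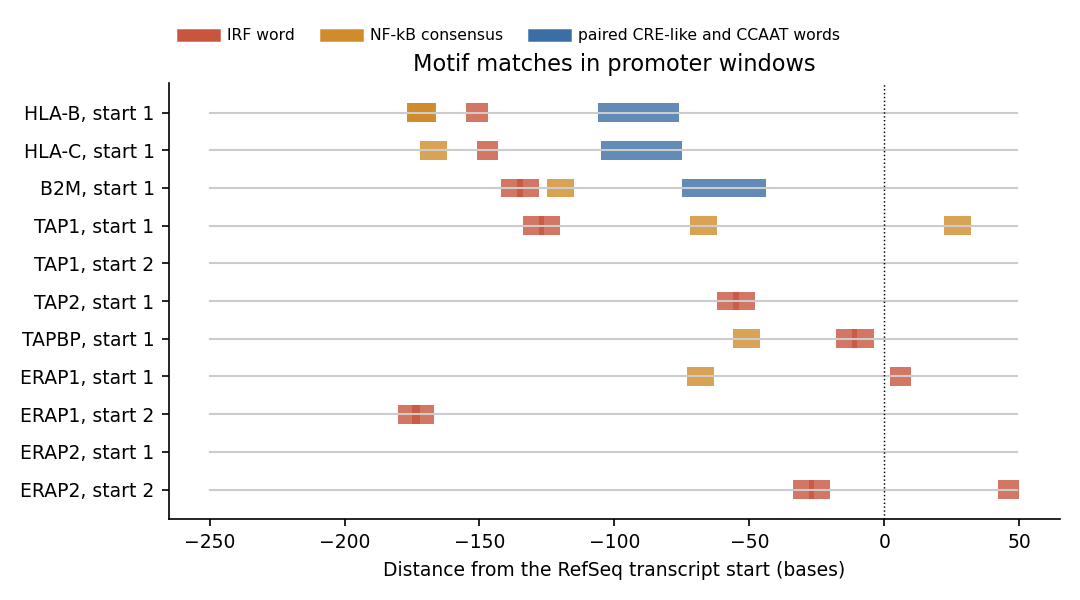
Positions of motif matches (coloured boxes) in the 11 RefSeq promoter windows of 8 members, by distance in bases from the transcript start (dotted line, at 0). IRF words appear in 9 windows, and the paired TGACG and ATTGG words in those of HLA-B, HLA-C and B2M.

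Levels between genes are compared per length, in the TPM values deposited by the authors. In controls HLA-C was highest at 408 ± 11.5 TPM (SD, n = 3), followed by B2M at 345 ± 64.4, HLA-B at 119 ± 8.55 and HLA-E at 66.2 ± 0.543 TPM. TAPBP stood at 50.1 ± 1.12 TPM, TAP1 at 39.3 ± 1.07, TAP2 at 15.6 ± 1.02, ERAP2 at 14.2 ± 0.614 and ERAP1 at 7.58 ± 0.430 TPM. The control libraries of neighbours in this order overlapped for HLA-C with B2M and for TAP2 with ERAP2, and for no other neighbours. These overlaps rested on B2M in control replicate 1 alone (412.5 TPM) and on TAP2 in control replicate 2 alone (14.43 TPM). Within each control library HLA-C was above B2M. Against a median of 18.6 TPM over the tested genes, B2M lay at percentile 97.6 and ERAP1 at percentile 31.2, so the light chain mRNA was among the abundant ones and that of the trimming enzyme ERAP1 below the median.

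After LRRC8A knockdown the log2 fold changes of 7 of the 9 class I genes ran from -0.05 (TAP1) to 0.06 (B2M). ERAP2 fell by 0.27 on the log2 scale, a call that was lost in 3 of 6 fits with 1 library dropped and in FPKM, and HLA-C had a log2 fold change of -0.14 that did not pass. Of the 9 members 1 fell, 0 rose and 8 did not pass (edgeR quasi-likelihood test, Benjamini-Hochberg adjusted p under 0.05 over 13551 genes), where 4.35% of all tested genes were called. The median log2 fold change of the members was -0.01 against 0.0008 over all tested genes, and the median absolute log2 fold change was 0.02 against 0.09. The groups of 3 values did not overlap for HLA-C and ERAP2, which is 2 of 9 where 23.6% of all tested genes did the same. In bulk RNA, fewer cells that express a gene and less RNA per cell cannot be told apart.

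**Figure D2:**
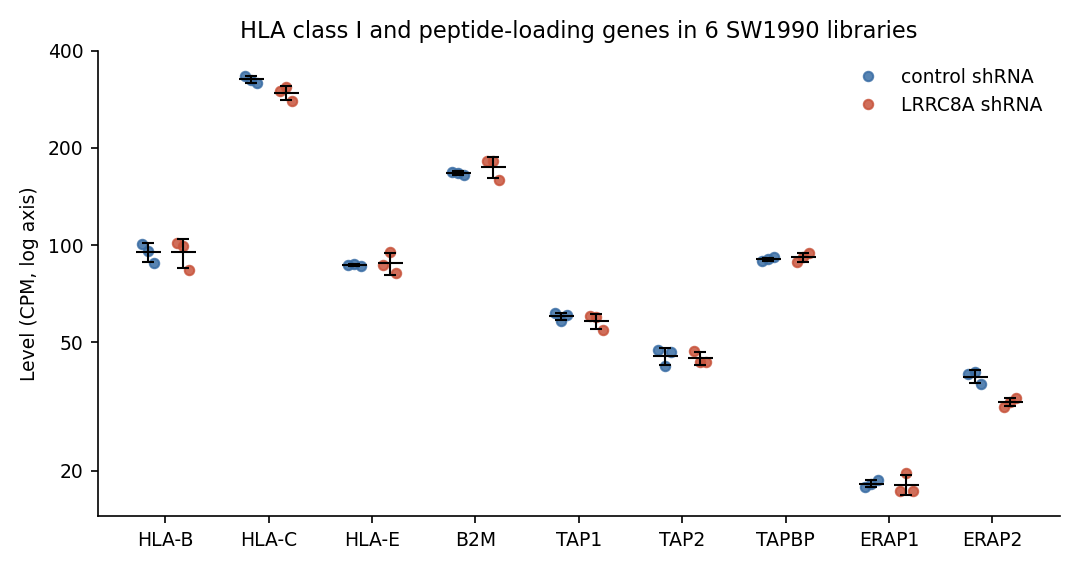
Level of each member in CPM (log axis) in the 3 control shRNA and 3 LRRC8A shRNA libraries (points), with the group mean and SD (black). The groups separate for HLA-C and ERAP2 and overlap for the other 7 genes.

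Among the heavy chains, HLA-B (ENSG00000234745) presents peptides to CD8 T cells and many of its allotypes are ligands of NK cell receptors. HLA-B stood at 101, 96.1 and 88.0 CPM in the controls and at 102, 99.7 and 83.8 CPM in the LRRC8A shRNA libraries. The group means nearly coincided, at 94.96 ± 6.51 and 95.01 ± 9.77 CPM (SD, n = 3 each), and the ranges overlapped. The log2 fold change was 0.0012 with a 95% confidence interval of -0.17 to 0.17 (edgeR adjusted p = 0.996), which spans a change of -11.1% to 12.7%.

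HLA-C (ENSG00000204525), the main class I ligand of killer-cell immunoglobulin-like receptors, had the largest counts of the members, up to 13131 in a library. It stood at 335, 326 and 318 CPM in the controls and at 301, 308 and 279 CPM in the LRRC8A shRNA libraries. Each LRRC8A shRNA library was below every control library. The log2 fold change of -0.14 (SE 0.04, 95% interval -0.23 to -0.05) had an unadjusted p of 0.00505 by edgeR and an edgeR adjusted p = 0.0833, which did not pass. It passed in 1 of 6 fits with 1 library dropped, that without LRRC8A shRNA replicate 2 (log2 fold change -0.17, edgeR adjusted p = 0.0481), while the other 5 gave an edgeR adjusted p of 0.124 to 0.272. DESeq2 gave an adjusted p = 0.0558 and limma on log2(FPKM + 1) an adjusted p = 0.269.

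HLA-E (ENSG00000204592), a non-classical heavy chain that presents leader peptides of other class I chains to the NK receptor CD94/NKG2A, was nearly constant among the controls at 87.0, 87.3 and 86.3 CPM. The LRRC8A shRNA libraries were at 86.6, 95.1 and 81.9 CPM, on both sides of the controls. The log2 fold change was 0.02 (SE 0.05, edgeR adjusted p = 0.914).

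The heavy chain genes are paralogs, so their counts depend on how reads were assigned. In the GENCODE 29 reference transcripts (GRCh38), 2.5% of the 50-base windows of HLA-B, 6.7% of those of HLA-C and 5.1% of those of HLA-E occurred in a transcript of another gene. HLA-B and HLA-C shared 2.0% of their windows. Class I alleles of the cell line differ from the reference to an extent that was not tested here. All 3 genes lie on chromosome 6 (GRCh38), HLA-C at 31268749 to 31272130 and HLA-E at 30489467 to 30494205, while the annotated span of HLA-B, 31269491 to 31357188, runs across HLA-C.

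B2M (ENSG00000166710; GRCh38, chromosome 15, 44711487 to 44718877), the light chain that every class I heavy chain needs for folding and export, was at 169, 168 and 165 CPM in the controls. In the LRRC8A shRNA libraries it was at 182, 183 and 160 CPM, higher than the controls in replicates 1 and 2 and lower in replicate 3. The log2 fold change was 0.06 (SE 0.05, 95% interval -0.04 to 0.17, edgeR adjusted p = 0.545). The FPKM values deposited by the authors, which scale fragments by length and depth, spread more: 187, 151 and 129 FPKM in the controls and 181, 180 and 152 FPKM in the LRRC8A shRNA libraries. The highest control value was 1.45 times the lowest in FPKM and 1.02 times in CPM, so the B2M level of a library depends on which deposited measure is read.

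**Figure D3:**
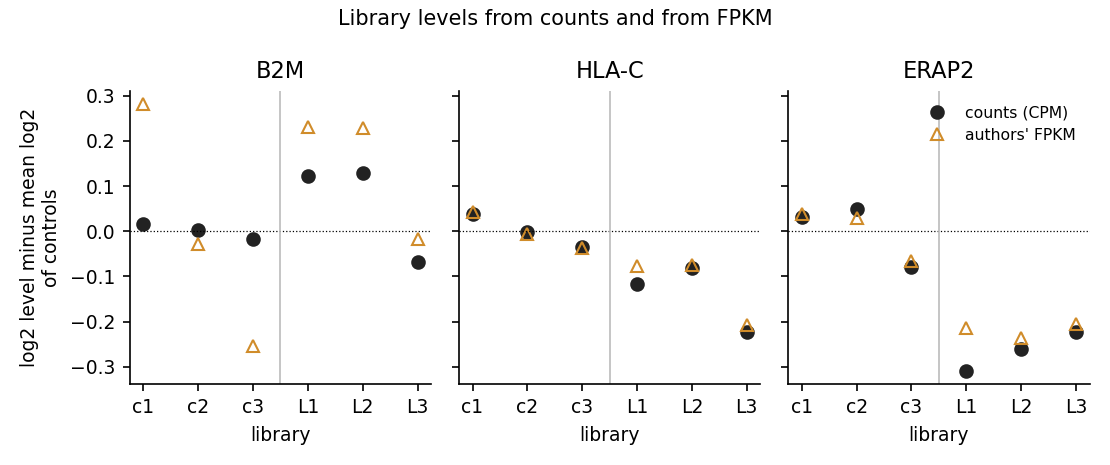
Level of B2M, HLA-C and ERAP2 in each library, as log2 of CPM (filled circles) or of the authors' FPKM (open triangles) minus the mean log2 over the 3 controls. Libraries c1 to c3 are control shRNA and L1 to L3 LRRC8A shRNA. For HLA-C the measures nearly coincide, while for B2M they part most in control replicates 1 and 3.

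TAP1 and TAP2 encode the subunits that together form the transporter and pump peptides into the endoplasmic reticulum. TAP1 (ENSG00000168394) was at 61.6, 58.3 and 60.7 CPM in controls and 60.3, 59.8 and 54.6 CPM in LRRC8A shRNA libraries, with a log2 fold change of -0.05 (SE 0.05, edgeR adjusted p = 0.701). TAP2 (ENSG00000204267) was at 47.4, 42.3 and 46.6 CPM in controls and 47.1, 43.6 and 43.3 CPM in LRRC8A shRNA libraries, with a log2 fold change of -0.02 (SE 0.06, edgeR adjusted p = 0.885). For both genes the groups overlapped. A read-through gene on the same strand covers 32.3% of the exon length of TAP2, so part of its reads could belong to that gene.

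Tapasin bridges TAP and the empty class I molecule and favours the binding of stable peptides. TAPBP (ENSG00000231925) was at 89.4, 90.4 and 91.6 CPM in controls and 88.9, 92.0 and 94.6 CPM in LRRC8A shRNA libraries. The SD between controls was 1.10 CPM and the log2 fold change 0.02 (SE 0.05, 95% interval -0.07 to 0.12, edgeR adjusted p = 0.859), and the groups overlapped.

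ERAP1 and ERAP2 cut amino acids from the N-terminus of peptides with different sequence preferences, and are known to work together on longer precursors. ERAP2 (ENSG00000164308; GRCh38, chromosome 5, 96875939 to 96919716) was at 40.0, 40.5 and 37.1 CPM in the controls and at 31.6, 32.7 and 33.6 CPM in the LRRC8A shRNA libraries. Every LRRC8A shRNA library was below every control. The mean fell from 39.2 ± 1.88 to 32.6 ± 0.963 CPM (SD, n = 3 each). This is a log2 fold change of -0.27 with SE 0.06 and an edgeR adjusted p = 0.0171, or a change of -16.8% with a 95% interval of -23.9% to -9.04%. The exact two-sided permutation test of the 6 CPM values returned p = 0.1, and a design of 3 against 3 cannot give less. The call was lost without control replicate 1 (edgeR adjusted p = 0.0831), control replicate 2 (0.0858) or LRRC8A shRNA replicate 1 (0.0789), and with limma on log2(FPKM + 1), where the log2 fold change was -0.19 (adjusted p = 0.164). It was kept in the other 3 of 6 fits with 1 library dropped. DESeq2 (adjusted p = 0.00633) and edgeR with a replicate block (adjusted p = 0.0285) also kept it.

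ERAP1 (ENSG00000164307), beside ERAP2 on the opposite strand, did not share this difference in level. It was at 17.8, 18.3 and 18.8 CPM in controls and 17.4, 19.7 and 17.4 CPM in LRRC8A shRNA libraries, so that the groups overlapped (log2 fold change -0.01, SE 0.08, 95% interval -0.18 to 0.16, edgeR adjusted p = 0.963). LNPEP, the neighbour on the other side (GRCh38, chromosome 5, 96935394 to 97037515), encodes a related aminopeptidase that trims peptides in endosomes, and was at 48.8 ± 2.61 CPM in controls and 49.02 ± 1.35 CPM in LRRC8A shRNA libraries (SD, n = 3 each; log2 fold change 0.01, edgeR adjusted p = 0.966). Whether ERAP2 differed more than ERAP1 or LNPEP was not tested. The table also lists an antisense transcript of ERAP2 and LNPEP, with 11 to 28 counts per library against 1222 to 1497 for ERAP2.

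**Figure D4:**
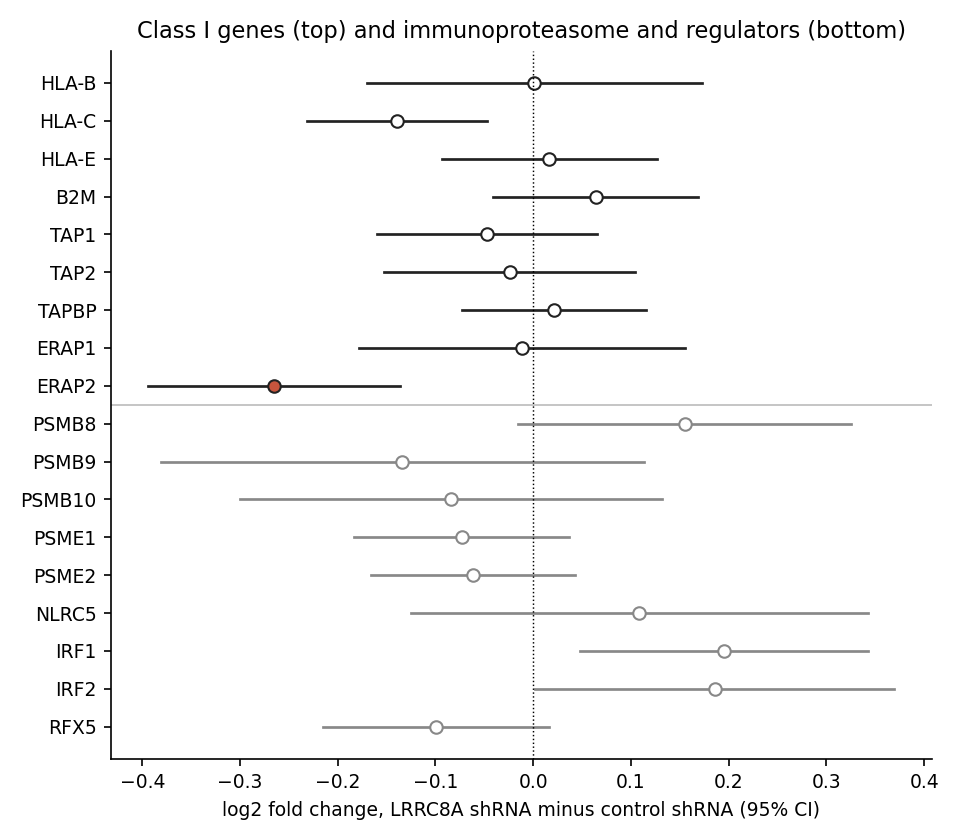
Log2 fold change (LRRC8A shRNA minus control shRNA) with its 95% confidence interval for the 9 members (top) and for the immunoproteasome, PA28 and regulator genes (bottom), from edgeR with 3 libraries per group. The filled point, ERAP2, had an adjusted p under 0.05; the intervals of HLA-C, IRF1 and IRF2 also lie to one side of 0, but those genes did not pass the adjustment.

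LRRC8A shRNA replicate 3 was the lowest of its group for 6 of the 9 (HLA-B, HLA-C, HLA-E, B2M, TAP1 and TAP2) and control replicate 3 for 5 (HLA-B, HLA-C, HLA-E, B2M and ERAP2), where these libraries were the lowest for 34.9% and 35.3% of all tested genes. LRRC8A shRNA replicate 3 also stood apart over all genes, with a chi-square per degree of freedom of 19.7 and 24.7 against replicates 1 and 2, which gave 11.7 between them, and the part of this in the members' values was not tested. The summed level of the 9 was 913 to 948 CPM in controls, and 917, 934 and 848 CPM in LRRC8A shRNA replicates 1 to 3. The SD relative to the mean ran from 0.553% (HLA-E) to 6.86% (HLA-B) in controls and from 2.95% (ERAP2) to 10.3% (HLA-B) in LRRC8A shRNA libraries. In CPM HLA-B had the highest ratio in both groups, while in the deposited FPKM the controls of B2M spread more, at 156 ± 29.3 FPKM against 53.6 ± 3.79 for HLA-B. The genes nearest in pattern, by Euclidean distance of centred log2 CPM over the 6 libraries, were MRPL55, ABHD8 and KRT10 for HLA-B (distances 0.07, 0.07 and 0.08), SNAP47, TOR4A and NAA38 for B2M (0.02, 0.03 and 0.03) and PLGRKT, PTPA and RNH1 for TAP1 (0.03, 0.04 and 0.04).

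Upstream of TAP, the peptide supply genes gave no call. The immunoproteasome subunits PSMB8, PSMB9 and PSMB10 replace the standard catalytic subunits under interferon gamma, and PSME1 and PSME2 form the PA28 activator. Of these 5 genes 0 rose and 0 fell, and 0 had an unadjusted p under 0.05 (edgeR) or an adjusted p under 0.05 by edgeR. PSMB8 was at 17.8, 19.2 and 17.6 CPM in controls and 21.8, 20.4 and 18.5 CPM in LRRC8A shRNA libraries, with overlap (log2 fold change 0.15, edgeR adjusted p = 0.330). The log2 fold changes of PSMB9, PSMB10, PSME1 and PSME2 were -0.13, -0.08, -0.07 and -0.06, with edgeR adjusted p-values of 0.604, 0.724, 0.501 and 0.566. PSMB8 and PSMB9 overlap on opposite strands, and the strand setting of the counting is not given in the sources used here. Of 15 standard 20S genes 0 passed (edgeR), with 0 at an unadjusted p under 0.05, and the log2 fold changes of all 15 lay between -0.07 and 0.05. PSMA1 (-0.07) and PSMB3 (-0.07) had the smallest p-values. Of 7 cytosolic peptidase genes, which destroy or shorten peptides before TAP, 0 passed by edgeR and 1 had an unadjusted p under 0.05, where 18.3% of all tested genes did. This was the oligopeptidase gene NLN (-0.12, edgeR adjusted p = 0.169).

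Of 10 loading cofactor genes 1 rose and 0 fell, where 1.77% of all tested genes were called higher and 2.58% lower. The list is one of the endoplasmic reticulum, apart from LNPEP, which trims peptides in endosomes. GANAB, the catalytic subunit of glucosidase II, trims the glucose residues that admit glycoproteins such as class I heavy chains to the calnexin and calreticulin cycle. GANAB was at 401, 419 and 432 CPM in controls and at 562, 571 and 531 CPM in LRRC8A shRNA libraries, far apart in relation to the spread of either group. It rose, with a log2 fold change of 0.41, SE 0.04 and an edgeR adjusted p = 1.57e-05, and dropping any of the 6 libraries kept the call. PRKCSH, the regulatory subunit of the same enzyme, was at 254 ± 5.19 CPM in controls and 260 ± 9.59 CPM in LRRC8A shRNA libraries (SD, n = 3 each; edgeR adjusted p = 0.768). CALR, the calreticulin of the loading complex, did not pass, at 1164, 1203 and 1324 CPM in controls and 1040, 1117 and 1151 CPM in LRRC8A shRNA libraries, without overlap (log2 fold change -0.16, edgeR adjusted p = 0.103), and its partner PDIA3 had a log2 fold change of 0.0006. The median of the 10 was -0.01.

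The regulators of class I transcription gave no call either. Of 15 genes 0 rose and 0 fell by edgeR, and 2 had an unadjusted p under 0.05, IRF1 and IRF2, a share below the 18.3% of all tested genes. IRF1, the interferon gamma induced activator that binds IRF words, was at 23.6, 24.6 and 22.2 CPM in controls and 28.2, 27.2 and 25.1 CPM in LRRC8A shRNA libraries, without overlap (log2 fold change 0.20, SE 0.07, edgeR adjusted p = 0.129). IRF2 had a log2 fold change of 0.19 (edgeR adjusted p = 0.269). NLRC5, the class I coactivator, was at 7.59 ± 0.438 and 8.18 ± 0.419 CPM (SD, n = 3 each; edgeR adjusted p = 0.666), and RFX5, which binds the X box, at 68.5 ± 4.54 and 63.9 ± 2.59 CPM (edgeR adjusted p = 0.360). Of 8 genes of interferon gamma receptor signalling 0 passed by edgeR. An unadjusted p under 0.05 was found for 2, JAK2 (-0.23, edgeR adjusted p = 0.127) and IFNGR1 (-0.09, edgeR adjusted p = 0.261), where 18.3% of all tested genes had one. A gene on the opposite strand overlaps 22.0% of the exon length of IRF1.

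Interferon-stimulated genes, many of which respond to the same factors as class I, had mostly negative fold changes. Of 37 tested 5 fell and 0 rose, where 2.58% of all tested genes were called lower, and 29 had a negative log2 fold change with a median of -0.12, where 50.2% of all tested genes had a positive one. The 5 were the antiviral genes OASL (-0.26), IFIT2 (-0.20) and RIGI (-0.17) and the small membrane protein genes IFI6 (-0.37) and IFI27 (-0.35), with edgeR adjusted p-values of 0.0129, 0.0145, 0.0368, 0.0389 and 0.0429. With 1 library dropped at a time they kept the call in 2, 3, 1, 2 and 1 of 6 fits, with an edgeR adjusted p of up to 0.200 (IFI27 without control replicate 1). Of the 37, 13 had an unadjusted p under 0.05 by edgeR, where 18.3% of all tested genes had one. The groups did not overlap for 15 of the 37, where 23.6% of all tested genes did the same. The difference between this list and the members was not tested.

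**Figure D5:**
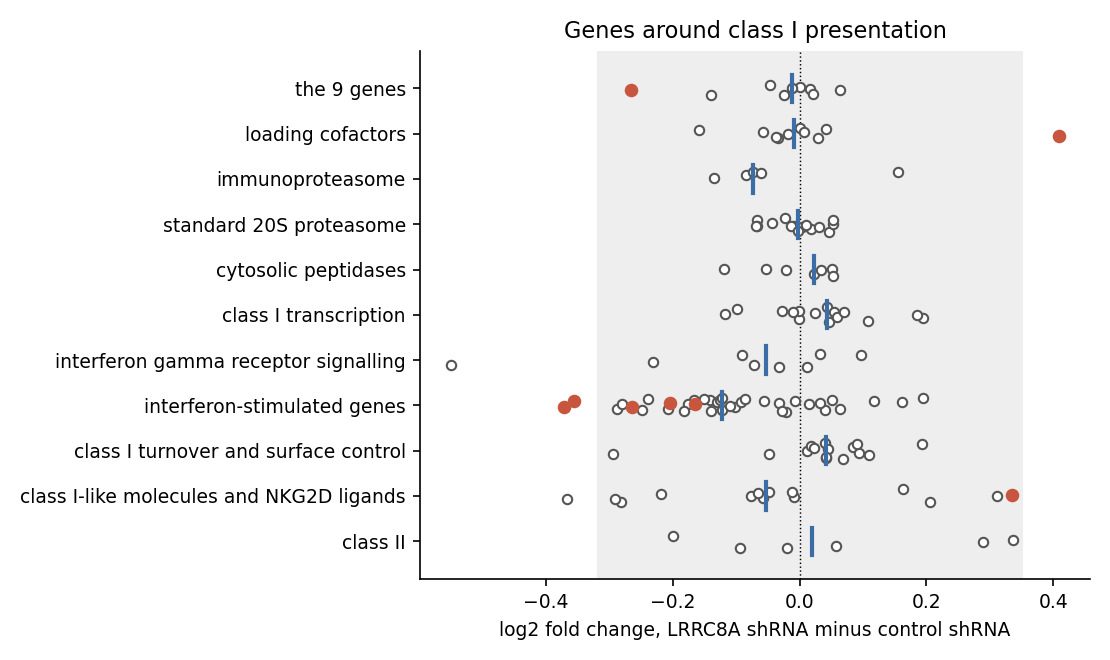
Log2 fold changes (LRRC8A shRNA minus control shRNA) of the tested genes in each list, with filled points for an edgeR adjusted p under 0.05 and a blue bar at the list's median. The grey band runs from the 5th to the 95th percentile of all tested genes, -0.32 to 0.35, and the dotted line marks their median.

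Past the loading step, 15 genes of class I turnover and surface control, which include the SUSD6, TMEM127 and WWP2 complex that sends class I to lysosomes and the autophagy receptor NBR1, gave 0 calls and 0 unadjusted p-values under 0.05 by edgeR. In this list 13 had a positive log2 fold change, against 50.2% of all tested genes, with a median of 0.04, and the smallest p-values were those of MARCHF9 (0.19, edgeR adjusted p = 0.297) and AUP1 (0.09, edgeR adjusted p = 0.311). Of 20 class I-like molecules and NKG2D ligands 14 were tested, 1 rose and 0 fell, where 1.77% of all tested genes were called higher. In this list 10 of the 14 had a negative log2 fold change, with a median of -0.05. By edgeR 3 had an unadjusted p under 0.05, where 18.3% of all tested genes did. MICB, a stress-induced ligand of the activating NK receptor NKG2D, was at 14.1, 15.6 and 16.4 CPM in controls and 17.4, 20.04 and 20.7 CPM in LRRC8A shRNA libraries, without overlap (log2 fold change 0.33, SE 0.09, edgeR adjusted p = 0.0376). With 1 library dropped at a time it kept the call in 2 of 6 fits, with an edgeR adjusted p of up to 0.195 (without control replicate 1), and it is a close paralog of MICA, which had a log2 fold change of -0.01. The other 2 under an unadjusted p of 0.05 had negative log2 fold changes and did not pass, the NKG2D ligand gene RAET1L (-0.37, edgeR adjusted p = 0.116) and the iron regulator gene HFE (-0.28, edgeR adjusted p = 0.0753), both without overlap. ULBP3, another NKG2D ligand gene, was also without overlap (-0.29, edgeR adjusted p = 0.279). In all, 4 of the 14 had groups without overlap, where 23.6% of all tested genes did. HLA-F was at 20.1 ± 1.302 and 19.0 ± 1.77 CPM, and HLA-G had 0 counts in every library. Of 13 class II genes 6 were tested and 0 passed by edgeR, with 0 at an unadjusted p under 0.05; the invariant chain gene CD74 was at 34.5 ± 0.639 and 32.4 ± 0.422 CPM without overlap (SD, n = 3 each; edgeR adjusted p = 0.432).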

How the data were processed

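RNA-seq libraries of SW1990 cells (3 control shRNA, 3 LRRC8A shRNA) were made with a stranded mRNA kit, per the labels' protocols. The submitters' processing notes name StringTie 2.2.3, HISAT2 2.2.1 and fastp 0.23.2, and the builds GRCh38 and mm10 without a role. For the counting program and its strand setting, the entry is "not given in the sources used here". The authors deposited, per gene, raw read counts, FPKM values and TPM values (the deposited rows sum to 935131.3 to 939556.2 per library). The table's type column reads protein-coding in all 20345 rows, although some are named as antisense transcripts or pseudogenes. Positions are from GENCODE 29 (GRCh38), not from the table.

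Counts were filtered with filterByExpr, scaled with TMM factors and tested in R 4.3.3 with edgeR 4.0.16 (quasi-likelihood, robust fit), two-sided, Benjamini-Hochberg adjusted over 13551 genes, threshold 0.05, with no replicate term. The code was tested on simulated data, in which 200 of 13551 genes were changed by 0.5 or 1 on the log2 scale. It recovered 89% of the changes of 0.5 and 99% of those of 1, with 24 false calls. Smaller changes, such as that of ERAP2, were not simulated. Alternatives used DESeq2 1.42.0 and limma 3.58.1. The members, gene lists and motifs were chosen with earlier results of these data known. Named genes are the members, LRRC8A, set pathway genes, list genes that passed, or the list genes with the smallest p. EPCAM, CDH1, KRT7, MUC1, LNPEP, PRKCSH, CALR, PDIA3, MICA, RAET1L, HFE, ULBP3, HLA-F and HLA-G were named outside this rule, after their values were seen. The same holds for CD3D, CD3E, CD2 and NKG7. The result of 1 gene that the rule names is not reported here.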

Additional observations from a re-analysis of the deposited data

How the results depend on the processing

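Leaving out 1 library at a time gave 246 to 504 changed genes against 590, and 0 to 2 changed members against 1. Limma on log2(FPKM + 1) called 157 genes and 0 members, on log2(FPKM + 0.1) 154 and 0, and a threshold of 0.1 called 1001 and 2. A looser threshold can only add calls. The cause of the other shifts was not tested, and in the fits without 1 library the smaller number of libraries cannot be told apart from the library dropped. ERAP2 had a log2 fold change of -0.30 to -0.24 without 1 library (edgeR adjusted p 0.0226 to 0.0858), and -0.19 and -0.22 in FPKM with pseudocounts of 1 and 0.1 (limma adjusted p = 0.164 with the pseudocount of 1). HLA-C stayed lower in all 12 alternatives, at -0.17 to -0.10 without 1 library.

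Of the members, 5 near 0 changed sign in some alternatives. Without 1 library the ranges were -0.0502 to 0.0838 (HLA-B), -0.0444 to 0.0643 (HLA-E), -0.0751 to 0.0059 (TAP2), -0.0003 to 0.0436 (TAPBP) and -0.0726 to 0.0189 (ERAP1), and TAP2 was at 0.0348 and 0.039 in FPKM with pseudocounts of 1 and 0.1. B2M stayed positive and TAP1 negative in all 12, without passing.

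Same-numbered libraries did not deviate together (correlations of 0.012, -0.036 and -0.006 over 11301 genes). These values cannot show how the cultures were handled, and nothing says that libraries with equal replicate numbers share a culture or day. With a replicate block 2 members were called, HLA-C being added at -0.14 (edgeR adjusted p = 0.0448), HLA-B was at -0.0019, and 671 genes changed. ERAP1 had the lowest counts of the members, at 651 to 758 per library, and the part of depth in its SE was not tested.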

Other observations

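B2M was measured differently by the deposited counts and FPKM values. After centring, log2(FPKM/CPM) of B2M was 0.23, -0.06 and -0.27 in control replicates 1 to 3 and 0.04, 0.06 and -0.0020 in LRRC8A shRNA replicates 1 to 3. The range of 0.50 over the 6 libraries lay at percentile 98.8 of the 7179 tested genes with a mean of at least 1000 counts, whose median range was 0.06. The same range was 0.01 for HLA-B and HLA-C, 0.02 for HLA-E, 0.01 for TAP1, 0.10 for TAP2 and TAPBP, and 0.07 for ERAP2. This comparison was looked at after the values were seen.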
